A study of Mus musculus with 2 samples.

Results

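The region described here is the stretch of mouse chromosome 11 that lies 5 to 65 kb upstream of the Ccl2 promoter, chr11:81783193-81843193 in the genome build mm9. It was seen by 4C-seq, a sequencing form of circular chromosome conformation capture, from a viewpoint at the Ccl2 transcription start site. Its members are the DpnII fragment ends that occur once in the genome and whose fragment centre falls between these positions: 262 ends on 143 fragments, of 921359 such ends on the 2 viewpoint chromosomes of the series. The 60 kb hold 149 fragments in all, and 19 of their 298 ends had no value and 17 had several copies in the genome, so neither group was counted. The range at the same distances on the other side of the viewpoint (81853193 to 81913193), called the mirror range here, holds 286 unique ends on 154 fragments. The study profiled primary bone marrow-derived macrophages (BMDMs) of strain C57BL/6, grown in medium conditioned by L929 cells, untreated and on day 7 of differentiation. There was 1 library with the Ccl2 viewpoint and 1 with a viewpoint at the start site of Jun. Cross-linking used 2% formaldehyde for 10 min, and each library pooled 8 PCRs of 200 ng template. The profiles hold genomic DNA and no expression values, so the cell type could not be checked against marker genes.

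Ccl2 encodes a CC chemokine that draws monocytes to inflamed tissue, and macrophages are among its main sources. Its promoter lies at one border of a cluster of CC chemokine genes and is controlled in part by upstream elements that bind NF-κB. In 4C-seq, cross-linked chromatin is cut with a first enzyme (here DpnII), ligated, cut with a second enzyme (written Csp61 in the labels) and ligated again, and inverse PCR from the viewpoint recovers what was joined to it. Reads at a fragment end therefore count its ligation to the viewpoint. Ligation falls with distance along the chromosome, because nearby chromatin meets by chance, so levels are best compared at equal distance. Fragments that lack a site of the second enzyme circularise as longer products, and 4C protocols treat them as a class that is recovered less well.

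In the gene order of GRCm38.p6, Ccl2 is followed on its higher side by Ccl7, Ccl11, Ccl12, Ccl8 and Ccl1, all CC chemokine genes, with the lncRNA gene Gm38913 among them. On its lower side come the lncRNA gene Gm31522, then the lncRNA gene Gm11419, which overlaps the start of Asic2, and then Asic2, which encodes an acid-sensing ion channel subunit. The protein-coding gene 1700071K01Rik lies inside the span of Asic2, so no protein-coding gene separates Asic2 from Ccl2 in that table. Positions from that build do not apply to mm9. Whether the lower border of the region stops short of Asic2, and where in it Gm31522 and Gm11419 lie, was not tested.

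The Ccl2 library held 1248937 reads on 424613 unique ends of chromosome 11, and 901507 of them lay on ends at least 5 kb from the viewpoint (position 81848193, the centre of the fragment with the most-read end). The Jun library held 1652054 reads on 496746 unique ends of chromosome 4, with 1098887 outside 5 kb. With 1 library per viewpoint there is no replicate spread and no p-value. Intervals are exact (Clopper-Pearson) 95% binomial intervals, which cover counting error only, and without molecular identifiers copies made by PCR count as separate reads.

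Most ends of the upstream flank had a read, as in the mirror range, and the flank took a large part of the reads. Of its 262 ends, 243 had a read, which is 92.7% (88.9 to 95.6%), and in the mirror range 263 of 286 did, 92.0% (88.2 to 94.8%). Over all unique ends of chromosome 11 outside 5 kb the share was 1.92%, and from 5 to 1000 kb on both sides 20.5%. Of the flank's fragments with a unique end, 137 of 143 had a read, against 153 of 154 in the mirror range. The flank held 199427 reads, 22.1% of the library outside 5 kb (22.0 to 22.2%), on 0.0617% of its ends. The mirror range held 121726 reads, or 13.5% (13.4 to 13.6%), on 0.0674% of the ends. Per kb this came to 3324 reads in the flank and 2029 in the mirror range. Over the whole range the shares of ends with a read were close on both sides, while reads per kb were not.

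Reads per end spanned the whole range from 0 to 6735 in the flank. The flank's ends had a median of 208.5 reads (quartiles 43.2 and 980) and a mean of 761 ± 1222 (SD over 262 ends), and the mirror ends a median of 145 (23.0 and 578) and a mean of 426 ± 666 (SD over 286 ends). On a log2(reads + 1) scale the mean was 7.29 ± 3.30 in the flank and 6.62 ± 3.16 in the mirror range, a difference of 0.67 that is small beside the scatter of single ends. In the flank 17 ends had 1 to 10 reads, 71 had 11 to 100, 91 had 101 to 1000 and 64 had more than 1000. In the mirror range these classes held 26, 78, 116 and 43 ends. The flank thus had more of the highest class although it had fewer ends. Ends of 1 library share the same cells and PCRs and are not replicates, so these SDs describe the region and not the error of its mean.

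**Figure D1:**
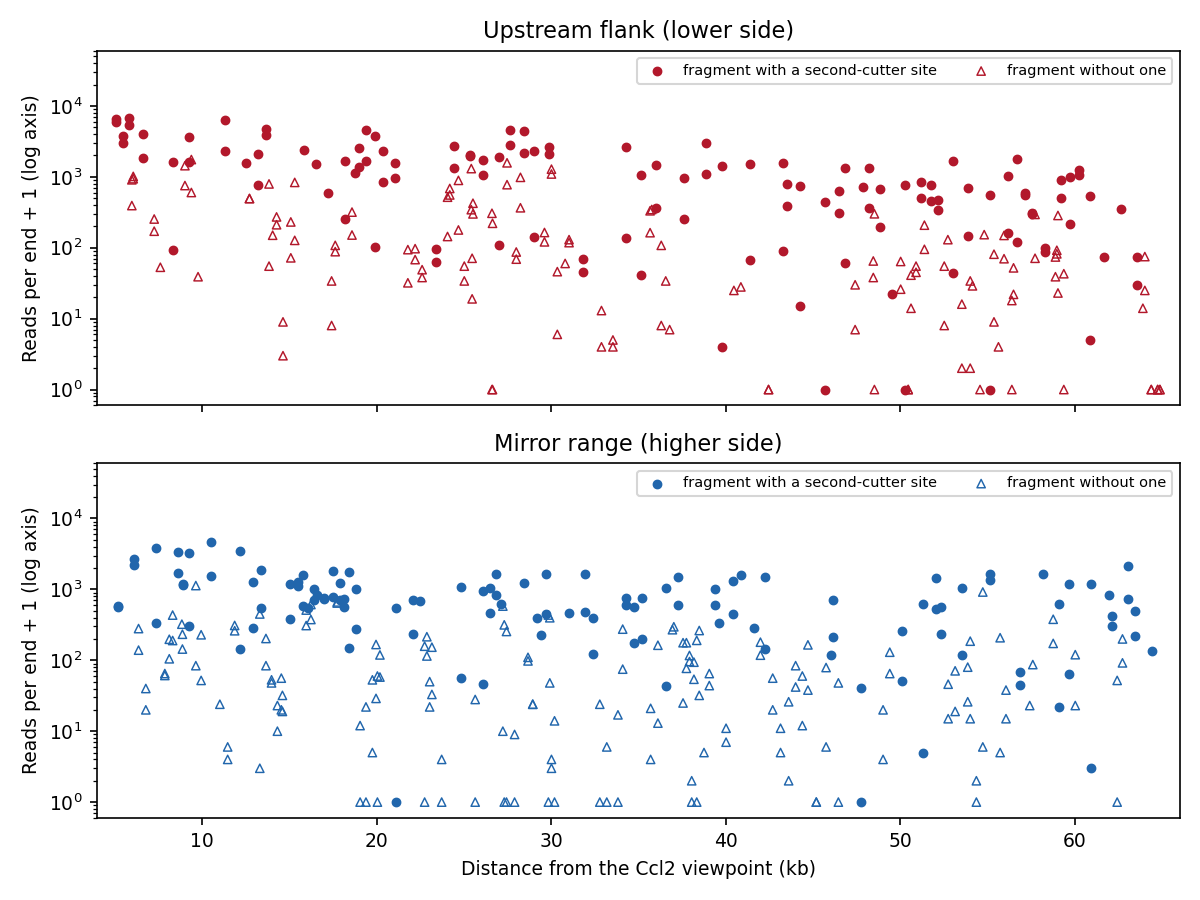
Reads per unique fragment end (plus 1, log axis) against distance from the Ccl2 viewpoint in kb, for the upstream flank (top) and the mirror range (bottom). Filled circles are ends on fragments with a second-cutter site and open triangles ends on fragments without one. The highest flank end stands at 6735 reads and the highest mirror end at 4692, and triangles lie below circles at most distances.

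The 10 highest ends held 26.7% of the flank's reads (53188 of 199427, interval 26.5 to 26.9%), and the 10 highest mirror ends 24.1% of theirs (23.9 to 24.4%). At least 50% of the reads lay on the highest 27 ends of the flank and the highest 32 of the mirror range. Single ends therefore did not carry the flank: its highest end held 3.38% of its reads. Of the 262 ends, 16 had over 10 times the median of the ends with a read (294 reads), against 9 of 286 in the mirror range (185 reads).

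Of those 10 ends, 5 lay within 10 kb of the viewpoint, 8 within 20 kb and the other 2 between 25 and 30 kb. The highest was the end that the file headers call 3′ on the fragment at position 81842385, 5.8 kb from the viewpoint, with 6735 reads, and the 5′ end of that fragment had 5436. Close to it, the fragment at 81843121 (5.1 kb) had 6486 reads on its 5′ end and 5873 on its 3′ end. These 4 ends, near the inner border, were all above the highest mirror end. Farther out, the 3′ end at 81836897 (11.3 kb), on the longest fragment of the region (2330 bp), had 6327 reads and its 5′ end 2326. The 3′ end at 81834513 (13.7 kb) had 4650 reads and its other end 3950. The 5′ end at 81828785 (19.4 kb) had 4639 reads and its other end 1651. Signal thus differed within a fragment too, since the ends of these fragments were up to 2.81 times apart. The 2 distant ends were the 3′ end at 81820529 (27.7 kb, 4635 reads, other end 2769) and the 5′ end at 81819745 (28.4 kb, 4390 reads, other end 2139). The tenth was the 5′ end at 81841569 (6.6 kb) with 4017 reads. The highest mirror ends were the 5′ ends at 81858737 (10.5 kb, 4692 reads), 81855553 (7.4 kb, 3864 reads) and 81860385 (12.2 kb, 3480 reads), whose other ends had 1542, 337 and 144 reads. All 10 flank ends and these 3 mirror ends were on fragments with a second-cutter site.

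The flank's ends differed strongly by whether their fragment held a second-cutter site. The files give for each end the length to the next such site, and a fragment holds one where that length is shorter than the fragment. In the flank 123 ends were on fragments with a site and had a median of 832 reads, and 139 were on fragments without one and had a median of 68, a ratio of 12.2. In the mirror range the medians were 616 (119 ends) and 47 (167 ends), a ratio of 13.1. Ends with a site made up 46.9% of the flank's ends and 85.0% of its reads, and 41.6% and 84.8% in the mirror range. The median was higher with a site in all 12 windows of 5 kb, in the flank and in the mirror range alike. Of the flank's 64 ends with over 1000 reads, 57 had a site, and of the 43 mirror ends 42 did.

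Reads also differed between length classes within the class without a site, though not in order of length. Across those 139 flank ends the correlation with fragment length was weak (Pearson r = -0.16 and Spearman rho = -0.19, on log scales). Flank ends without a site on fragments of 300 bp or longer had a median of 33 reads and at most 163 (43 ends), while those on fragments of 100 to 300 bp had a median of 166 and reached 1751 (40 ends), and those on fragments under 100 bp a median of 73.5 (56 ends). The mirror range showed the same order, with 18 (63 ends), 92 (58 ends) and 66.5 (46 ends). Among flank ends with a site, the medians were 757 on fragments of 300 bp or longer (89 ends) and 970 on those of 100 to 300 bp (32 ends). Across all 123 flank ends with a site, reads fell weakly with fragment length (Pearson r = -0.25 and Spearman rho = -0.26, on log scales). The length from such an end to the cutter site went with reads weakly if at all (Pearson r = 0.13 and Spearman rho = 0.09 across 123 ends, on log scales). These relations describe ends of 1 library that share its PCRs and depth.

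**Figure D2:**
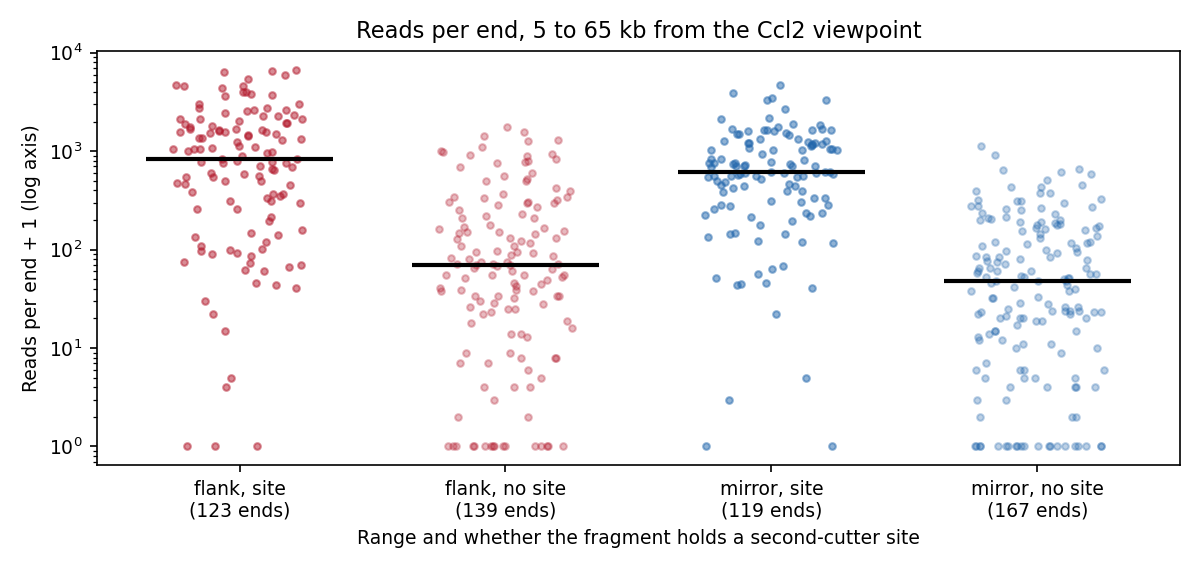
Reads per unique end (plus 1, log axis) for the flank and the mirror range, split by whether the fragment holds a second-cutter site. Points are ends, spread sideways at random, and bars are medians: with and without a site, the median was 832 and 68 reads in the flank and 616 and 47 in the mirror range.

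The flank received more reads per end than the mirror range out to 50 kb and fewer beyond. Flank reads made up 62.1% of the reads of both ranges together (61.9 to 62.3%), 1.64 times the mirror reads. From 5 to 20 kb the flank held 100316 reads on 62 ends and the mirror range 63537 on 90 ends, 2.29 times as many per end. From 20 to 35 kb there were 55975 reads on 69 flank ends and 21735 on 72 mirror ends, 2.69 times per end. From 35 to 50 kb there were 22436 reads on 47 flank ends and 15722 on 69 mirror ends, 2.10 times per end. From 50 to 65 kb the sums were nearly equal, 20700 reads on 84 flank ends and 20732 on 55 mirror ends, and the ratio per end was 0.654. The difference in mean log2(reads + 1) ran in the same way, with 1.37, 1.94, 1.13 and -1.002 in these 4 stretches. Coverage of ends differed in both directions along the way. It was 62 of 62 flank ends against 88 of 90 mirror ends from 5 to 20 kb, 67 of 69 against 59 of 72 from 20 to 35 kb, 43 of 47 against 63 of 69 from 35 to 50 kb, and 71 of 84 against 53 of 55 from 50 to 65 kb.

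Within each class of ends, the excess of the flank reached less far by mean log2(reads + 1). In reads per end it was smaller from 35 to 50 kb but still present, at 1.13 times with a second-cutter site and 1.28 times without. Among ends with a second-cutter site, the mean log2(reads + 1) differed between flank and mirror by 1.03 from 5 to 20 kb and 1.14 from 20 to 35 kb, by -0.11 from 35 to 50 kb and by -0.24 from 50 to 65 kb. Among ends without a site these differences were 1.46, 2.51, -0.09 and -1.06. From 35 to 50 kb, 30 of 47 flank ends and 20 of 69 mirror ends had a site, so the make-up of the sides moved with the difference over all ends there. From 5 to 35 kb, 57 flank ends with a site had a median of 1940 reads and 70 mirror ends a median of 739.5. Without a site, the medians there were 149.5 (74 ends) and 50 (92 ends). The share of the flank in the reads of both ranges was 62.1% among ends with a site (62.0 to 62.3%) and 61.8% among those without (61.4 to 62.3%). The difference in mean log2(reads + 1) was 0.22 with a site and 0.69 without, beside 0.67 over all ends. The 3′ and 5′ ends gave different sizes, with a flank share of 67.1% by 3′ ends and 57.3% by 5′ ends.

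**Figure D3:**
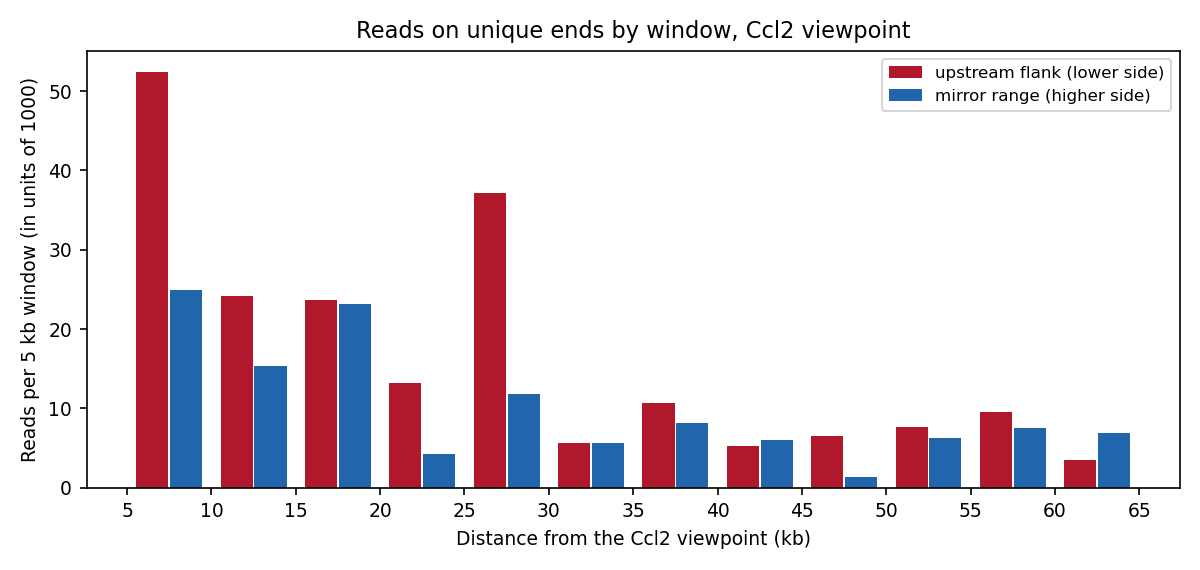
Reads on unique ends summed per 5 kb window of distance from the Ccl2 viewpoint, in units of 1000, for the upstream flank (left bar of each pair) and the mirror range (right bar). The flank stands highest at 5 to 10 kb (52457 reads) and again at 25 to 30 kb (37112 reads).

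Window by window, the profile of the flank was not a smooth fall. It held 52457 reads at 5 to 10 kb, 24192 at 10 to 15 kb, 23667 at 15 to 20 kb and 13215 at 20 to 25 kb. At 25 to 30 kb it stood at 37112, and at 30 to 35 kb at 5648. The 6 windows from there to 65 kb held 10684, 5250, 6502, 7632, 9589 and 3479 reads. The mirror range held 24894, 15414, 23229, 4295, 11793 and 5647 reads in its first 6 windows and 8220, 6082, 1420, 6228, 7581 and 6923 in the others. The flank was above the mirror range in 10 of 12 windows, in 1 of them (30 to 35 kb) by a single read, and at least 2 times above in 4. For comparison, 118 mirrored 5 kb windows from 5 to 1000 kb had a read on each side, these 12 included. Among the 118, the lower side was above the higher in 38.1% and at least 2 times above in 19.5%.

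The windows that passed 2 times were those at 5 to 10 kb (2.11 times), 20 to 25 kb (3.08), 25 to 30 kb (3.15) and 45 to 50 kb (4.58). The ratio at 45 to 50 kb was the highest of the 12 and came from a low mirror window: 6502 reads on 18 flank ends against 1420 on 15 mirror ends, with a second-cutter site at 12 and 5 of them. Among ends with a site the mean there was 505.5 reads in the flank and 215 in the mirror range. At 60 to 65 kb the flank had the lowest ratio, 0.503, with 3479 reads on 17 ends against 6923 on 16. There 11 of 17 flank ends had a read (64.7%, 38.3 to 85.8%) and 15 of 16 mirror ends (93.8%, 69.8 to 99.8%). In reads per end the flank was above in 9 windows and at least 2 times above in 6, and the mirror range was at least 2 times above in 1. By mean log2(reads + 1) the flank was above in 9 of 12 for all ends and in 7 of 12 for ends with a site. The windows from 30 to 45 kb and that at 50 to 55 kb thus changed sides with the class of ends. For ends with a site, the flank was at least 2 times above on that scale in 5 windows and the mirror range in 3. The shares of such windows out to 1000 kb were computed for summed reads only.

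**Figure D4:**
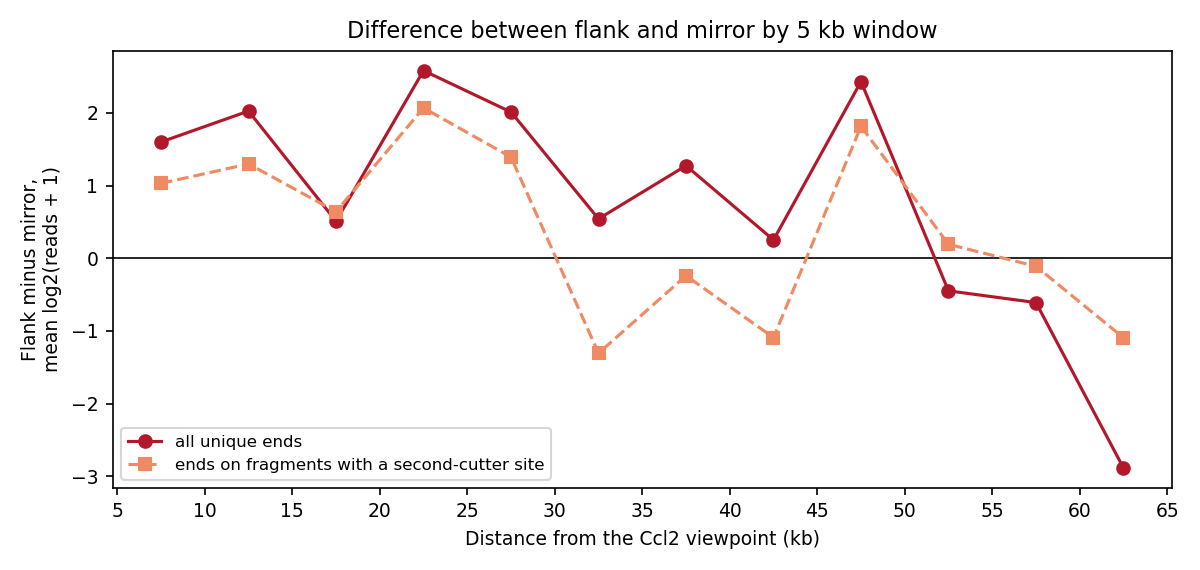
Flank minus mirror difference in mean log2(reads + 1) per unique end, by 5 kb window of distance from the Ccl2 viewpoint, for all unique ends (circles) and for ends on fragments with a second-cutter site (squares). Both lines lie above 0 out to 30 kb, and at 60 to 65 kb they stand at -2.89 and -1.09.

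The stretch at 25 to 30 kb, positions 81818193 to 81823193, held more reads than either window beside it. The mirror range rose at the same distance. It held 11793 reads on 30 ends at 25 to 30 kb, against 4295 on 21 nearer and 5647 on 21 farther out. The flank stretch had 18.6% of the flank's reads on 34 ends, 32 of them with a read, and 14 of the 34 had over 1000 reads. This window also has more unique ends than the 5 others within 35 kb, which have 24, 16, 22, 20 and 15. Per end it had a mean of 1092 reads, against 1076 at 15 to 20 kb and 1512 at 10 to 15 kb, and a median of 394, against 452 and 634.5. The 14 ends with a second-cutter site had a median of 2072 reads (107 to 4635), against 719 (45 to 1632) for the 12 such mirror ends. On its near side, at 20 to 25 kb, the median with a site was 1142 (8 ends), and on its far side, at 30 to 35 kb, 101.5 (4 ends). At 15 to 20 kb it was 1574 (12 ends) and at 10 to 15 kb 2326 (7 ends). Ends without a site had a median of 191.5 (20 ends) against 119.5 (12 ends) nearer and 45 (11 ends) farther out. The reads were spread over the stretch: its highest end held 12.5% of them. That share was similar in the flank at 5 to 10 kb (12.8%) and in the mirror window at 25 to 30 kb (13.8%). In the flank at 30 to 35 kb 1 end of 15 held 46.9%. High ends lay along the whole stretch at 25 to 30 kb. Among them were both ends of the 82 bp fragment at 81822849 (25.3 kb, 2045 and 1940 reads), both ends at 81820529 (27.7 kb, 4635 and 2769) and both ends of the 160 bp fragment at 81818337 (29.9 kb, 2612 and 2099). Without this window and its mirror, the flank's share of reads was 59.6%. What lies at these positions was not analysed here.

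Ends without a read gathered at the outer end of the flank. There were 19, of which 16 had no second-cutter site, and all 19 lay beyond 25 kb, the nearest at 26.6 kb, with 13 of them beyond 50 kb. The mirror range had 23, of which 21 had no site, with the nearest at 19.1 kb and 2 beyond 50 kb. The flank also had more ends there, 84 with 48 lacking a site, against 55 mirror ends with 26 lacking one. The longest run in the flank was 6 neighbouring ends on 3 fragments without a site, from 64.4 to 64.9 kb (positions 81783329 to 81783825), at the very border. In the mirror range no run was longer than 2 ends. Just outside the border, both ends of the fragment at 81782657 had no read either, and from 65 to 70 kb 10 of 18 lower-side ends had a read, against 21 of 27 on the higher side. From 65 to 125 kb the shares were 46.2% of 251 ends (39.9 to 52.6%) and 75.7% of 206 (69.3 to 81.4%). At the inner border, the fragment just inside (81843121) had 5873 and 6486 reads and the one just outside (81843713, 4.5 kb) 250 and 895, both with a second-cutter site. Reads thus changed sharply between neighbours at the inner border. At the outer border the fragments just inside and just outside both lacked a second-cutter site and had no read, so they could not show a change.

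Distance and neighbourhood ordered the ends only in part. Across the 262 flank ends, log2(reads + 1) fell with log10 distance (Pearson r = -0.43, Spearman rho = -0.43), and across the 286 mirror ends the values were r = -0.22 and rho = -0.21. Among ends with a site r was -0.49 in the flank (123 ends) and -0.35 in the mirror range (119 ends). Both ends of a fragment went together with r = 0.59 over 119 flank fragments and 0.49 over 132 mirror fragments. Within the class with a site r was only 0.24 over 57 flank fragments, and in the class without, 0.65 over 62. Neighbouring fragments had r = 0.36 over 137 flank pairs and 0.32 over 144 mirror pairs. The points share 1 library, its depth and, for neighbours, much of their distance, so these values are descriptions.

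The Jun viewpoint gives the same measures at another promoter, in a library of its own depth. Jun, whose product is part of the dimeric AP-1 transcription factor, is transcribed towards lower coordinates, so its upstream side is the higher one, whereas Ccl2 is transcribed towards higher coordinates. From 5 to 65 kb upstream of Jun 226 of 228 ends had a read (99.1%, 96.9 to 99.9%), and downstream 204 of 233 did (87.6%, 82.6 to 91.5%). Over all unique ends of chromosome 4 outside 5 kb the share was 1.91%. The upstream range held 135331 reads and the downstream range 49427, so 73.2% lay upstream (73.0 to 73.4%), beside 62.1% for Ccl2. Jun's upstream range was above its downstream range in all 12 windows and at least 2 times above in 11, where the Ccl2 flank was above in 10 and at least 2 times above in 4. The share of such windows out to 1000 kb was computed for the Ccl2 library only.

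The courses along the distance differed in these libraries. In the inner (5 to 35 kb) and the outer part (35 to 65 kb) the mean log2(reads + 1) was 8.22 and 7.78 upstream of Jun, and 8.47 and 6.11 in the Ccl2 flank. In the last window, at 60 to 65 kb, it was 9.13 upstream of Jun (8 ends) and 4.25 in the Ccl2 flank (17 ends). The highest 10 ends held 20.1% of the reads upstream of Jun and 26.7% in the Ccl2 flank. The second-cutter site parted the ends there too, with medians of 845 (99 ends) and 189 (129 ends) upstream of Jun. Viewpoint, depth and chromosome differ together between these libraries, so their effects cannot be told apart.

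**Figure D5:**
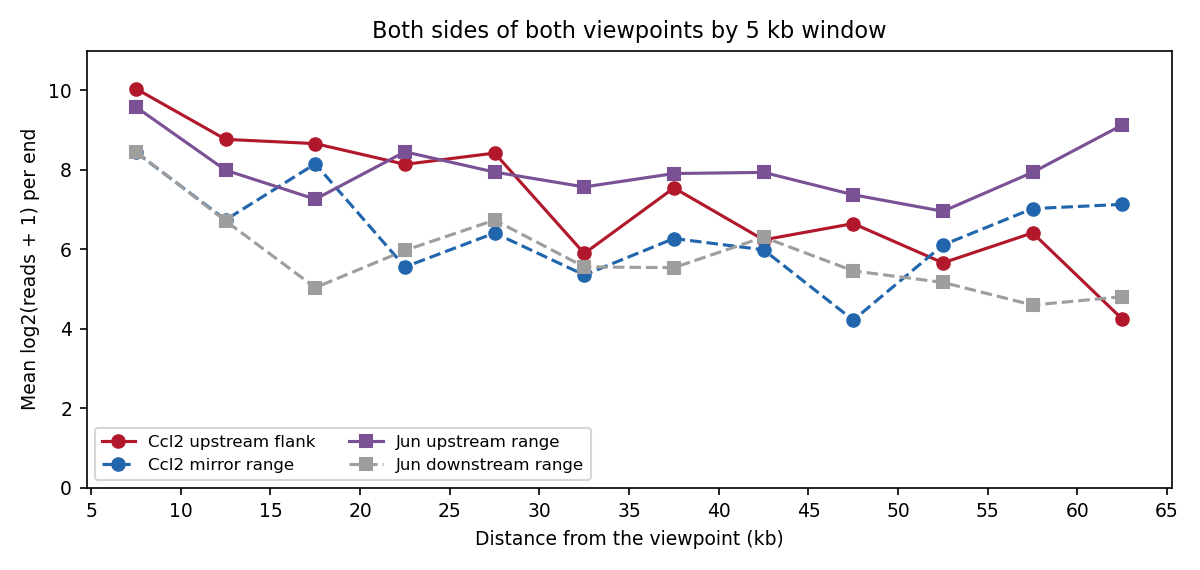
Mean log2(reads + 1) per unique end by 5 kb window of distance from the viewpoint, for the Ccl2 upstream flank and mirror range and for the Jun upstream and downstream ranges. The Ccl2 flank starts highest, at 10.04, and ends lowest, at 4.25, while the Jun upstream range ends at 9.13.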

How the data were processed

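Each deposited file covers the viewpoint chromosome in bins of 16 bp, with values in the bin at the centre of a DpnII fragment. Per the file headers, each fragment has 2 end values (3′ and 5′), their multiplicities, its length and the lengths to the second cutter; the names stand 1 column right of their values. The deposited end values were taken as estimated counts without scaling, a unit read from the values themselves. Per the submitters' processing notes the genome build is mm9. The aligner and the weighting are not stated in the labels or headers.

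Estimated counts were rounded to whole reads, and ends with multiplicity 1 were kept. Windows were 5 kb. Means on a log scale used log2(reads + 1). Python 3.11.15, pandas 2.3.3 and scipy 1.17.1 were used, and the code was tested on simulated data with known ratios between the sides. Named were the 10 highest flank ends and 3 highest mirror ends, the windows with the highest and lowest ratio, and the longest run without a read; the 25 to 30 kb window and the fragments named in it were picked after their values were seen, as were the length classes and the divisions by distance. The region and the measures were chosen with earlier results of these data known. Alternatives tried were the choice of ends, rounding, a minimum of 5 reads, an inner limit of 10 kb, a shifted viewpoint, a cap and window size.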

Additional observations from a re-analysis of the deposited data

Results flagged for a closer look

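Ends that occur more than once in the genome, which the main values leave out, carried reads. In the flank 14 of 17 such ends had a read, with 1743 reads in all, and in the mirror range 12 of 13 did, with 6886 reads.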

How the results depend on the processing

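No paired analysis was possible because each viewpoint had 1 library, and no replicate could be left out. The flank stayed above the mirror range in reads and in mean log2(reads + 1) under all 12 alternatives, of which that with only fragments lacking a second-cutter site and that without the window from 25 to 30 kb were chosen after seeing the data. The percentage of flank ends with a read moved beyond its interval in 2 alternatives, to 97.6% with only fragments holding a second-cutter site and 88.5% with only those lacking one. The flank's share of library reads, its share of the reads of both ranges, its log2 difference from the mirror range and the share of its 10 highest ends, in that order, were as follows. With ends of several copies they were 20.4%, 61.0%, 0.52 and 26.4%. With an inner limit of 10 kb they were 16.3%, 60.3%, 0.60 and 27.9%. With the viewpoint moved by 1 kb to the lower side they were 18.5%, 57.0%, 0.46 and 25.8%, and to the higher side 22.2%, 62.4%, 1.00 and 26.5%. With ends capped at the 95th percentile they were 18.9%, 58.5%, 0.63 and 14.7%. With 3′ ends only they were 24.0%, 67.1%, 0.95 and 42.2%, and with 5′ ends only 20.3%, 57.3%, 0.41 and 43.3%. With only fragments holding a second-cutter site they were 22.3%, 62.1%, 0.22 and 31.4%, and with only those lacking one 21.2%, 61.8%, 0.69 and 41.0%. Without the window from 25 to 30 kb they were 18.0%, 59.6%, 0.48 and 32.0%. Values without rounding and a minimum of 5 reads left all of them within their intervals, and the log2 difference within 0.05. The windows at 2 times the mirror range or more numbered 1 of 6 with windows of 10 kb and 0 of 12 by ends with a read, beside 4 of 12 by reads. They numbered 3 of 12 with capped ends and 6 of 12 by reads per end. Most ends of both ranges had a read, so the count by ends with a read mostly follows the number of unique ends per window. With an inner limit of 10 kb and without the 25 to 30 kb window, the library share was still taken over all reads outside 5 kb. It fell there because flank reads were left out. The 10 highest ends came from a smaller set where ends were left out, such as 133 3′ ends or 129 5′ ends of 262. With a shifted viewpoint the library share was also taken over all reads outside 5 kb of the original viewpoint, while the limits of the flank moved. The move to the lower side left out the flank ends nearest to the viewpoint. The cause of the other shifts was not tested. The effect of depth was not tested. Reads without molecular identifiers leave the true number of ligation events unknown.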
